A study of Homo sapiens with 28 samples.

Results

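The genes described here are serpin protease inhibitor genes, chosen by name with earlier results of these data known. They are SERPINA1, SERPINF1, SERPINB1, SERPINB6, SERPINB8 and SERPING1, with every probe set that the array annotation assigns to 1 of these genes alone. Of these 6 genes, 4 had such a probe set in the table, with 8 probe sets among 27306. Thus 4 of the 11676 genes tested were members. SERPINB6, an intracellular inhibitor of cathepsin G, and SERPING1, the C1 inhibitor of the complement and contact systems, were not analysed here. Neither had a probe set listed under its symbol alone, and probe sets with several symbols were not searched for them. The arrays (Affymetrix Human Genome U133 Plus 2.0) held RNA from the established acute myeloid leukaemia (AML) lines GDM1, MOLM13, NOMO1, SHI1, SKM1, SKNO1 and THP1. Each line had been kept for 96 hours (labelled day 4) in 1 µM GSK3484862, a small molecule that inhibits DNMT1, or in 0.1% DMSO, its vehicle. Biological duplicates of the 14 combinations gave 28 arrays, and every line was grown alone in culture, so each group is 1 cell line and not a form of the disease.

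Serpins fold into a strained structure with an exposed reactive loop. A protease that cuts the loop is swung across the molecule and held in a covalent complex, so that each inhibitor molecule is spent on 1 protease molecule. Antitrypsin, the product of SERPINA1, is secreted by the liver and by monocytes and macrophages and blocks neutrophil elastase. SERPINF1 encodes PEDF, a secreted serpin that inhibits no known protease and acts on cell survival and blood vessel growth. SERPINB1 and SERPINB8 belong to clade B, whose members lack a classical signal peptide and mostly stay inside the cell: SERPINB1 blocks elastase, proteinase 3 and cathepsin G of myeloid granules, and SERPINB8 can block the proprotein convertase furin. DNMT1, the maintenance DNA methyltransferase, copies methyl groups onto CG dinucleotides of newly made DNA strands, and loss of that copying can reactivate genes whose promoters were methylated.

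The stretches just before the RefSeq start sites of the measured genes are shown because CG dinucleotides are what DNMT1 methylates, and the windows differ in how many they hold. Methylation itself was not measured here. Each window holds 250 bases from RefSeq (GRCh38.p14), 5′ to 3′ on the strand of the gene, with CG dinucleotides in capitals. The windows lie at chr14:94390636-94390885 on the minus strand for SERPINA1, chr6:2841864-2842113 on the minus strand for SERPINB1, and chr18:63969831-63970080 on the plus strand for SERPINB8. SERPINF1 had no entry.
SERPINA1: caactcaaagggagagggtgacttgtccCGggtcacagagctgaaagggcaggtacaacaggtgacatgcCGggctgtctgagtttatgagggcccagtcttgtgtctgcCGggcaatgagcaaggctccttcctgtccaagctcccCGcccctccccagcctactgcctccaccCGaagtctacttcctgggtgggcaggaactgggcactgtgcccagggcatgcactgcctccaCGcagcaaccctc
SERPINB1: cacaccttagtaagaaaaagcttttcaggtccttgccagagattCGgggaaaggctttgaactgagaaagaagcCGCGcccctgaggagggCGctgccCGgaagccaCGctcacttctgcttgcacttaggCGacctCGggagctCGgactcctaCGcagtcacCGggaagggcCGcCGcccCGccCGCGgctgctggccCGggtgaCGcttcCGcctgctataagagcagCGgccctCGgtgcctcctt
SERPINB8: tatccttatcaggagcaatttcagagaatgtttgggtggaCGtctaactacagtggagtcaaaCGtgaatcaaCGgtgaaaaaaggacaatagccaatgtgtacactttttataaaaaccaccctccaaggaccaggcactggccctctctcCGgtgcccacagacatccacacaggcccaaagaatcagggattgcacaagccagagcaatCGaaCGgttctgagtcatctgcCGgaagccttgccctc
The window of SERPINA1 held 6 CG dinucleotides and 38.1% of 35116 RefSeq windows of the same length held fewer. A second RefSeq start of SERPINA1, at chr14:94388603-94388852 on the minus strand, had 11 in its window, the median of all windows. SERPINB1 had 21 CG dinucleotides, more than 69.8% of windows, and SERPINB8 had 7, more than 41.1%. On both strands, GGGCGG, the GC box read by SP factors, occurred 1 time in the SERPINA1 window shown and 2 times in that of SERPINB1, against at least 1 match in 42.6% of all windows. TATAAA was counted 2 times in the SERPINB8 window (10.7% of windows hold it), as overlapping matches on the 2 strands of 1 stretch. GAGGAA, the core read by the myeloid factor PU.1, occurred in none of these windows (23.6% hold it). These matches describe the letters only.

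Signals were log2 values between 2.13 and 16.8, with array medians from 8.33 to 8.51. A change is the log2 signal with GSK3484862 less that with DMSO, its standard error (SE) comes from a limma fit to all 28 arrays, and it was called at an adjusted p under 0.05 over the 11676 genes. With 2 arrays a group the number of arrays limits the precision. Pearson's r between duplicates, taken over genes, which are no independent replicates, was 0.990 to 0.998. The myeloid label of the lines was checked on 10 measured genes of 12 listed. Group means did not fall below 12.9 for MYB, 11.8 for CORO1A, 11.2 for the leukocyte gene PTPRC, 9.86 for LYN, 9.21 for lysozyme (LYZ), 8.89 for the myeloid factor SPI1 and 8.79 for CEBPA. Those of the other 3 came down to or below the array medians in some line, at 8.38 for LCP1, 8.19 for the growth factor receptor CSF3R and 6.94 for myeloperoxidase (MPO), whose highest mean was 15.5. Each probe set has its own lowest value in the table, and a rise that starts there is limited in size by it. Levels are compared between lines for 1 probe set and never between genes.

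SERPINA1 rose on average by 2.00 ± 0.0856 over the 7 lines, and SERPINF1 by 2.31 ± 0.137. The intracellular pair moved less, by 0.46 ± 0.0436 for SERPINB1 and 0.19 ± 0.0296 for SERPINB8. All 4 measured members were called up on this average (limma adjusted p of 5.09e-11, 1.76e-09, 2.8e-07 and 4.61e-05 in that order), against 23.2% of all genes called up and 28.6% called down. The members' median was 1.23 and that of all genes -0.02. Since the members were chosen with earlier results of these data known, such shares describe them and do not test them. These p-values concern these 7 lines, since their error is the spread between duplicates. With the lines taken as the units, the same averages had adjusted p of 0.0779, 0.0557, 0.136 and 0.214, and 296 genes were called up in place of 2704.

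**Figure D1:**
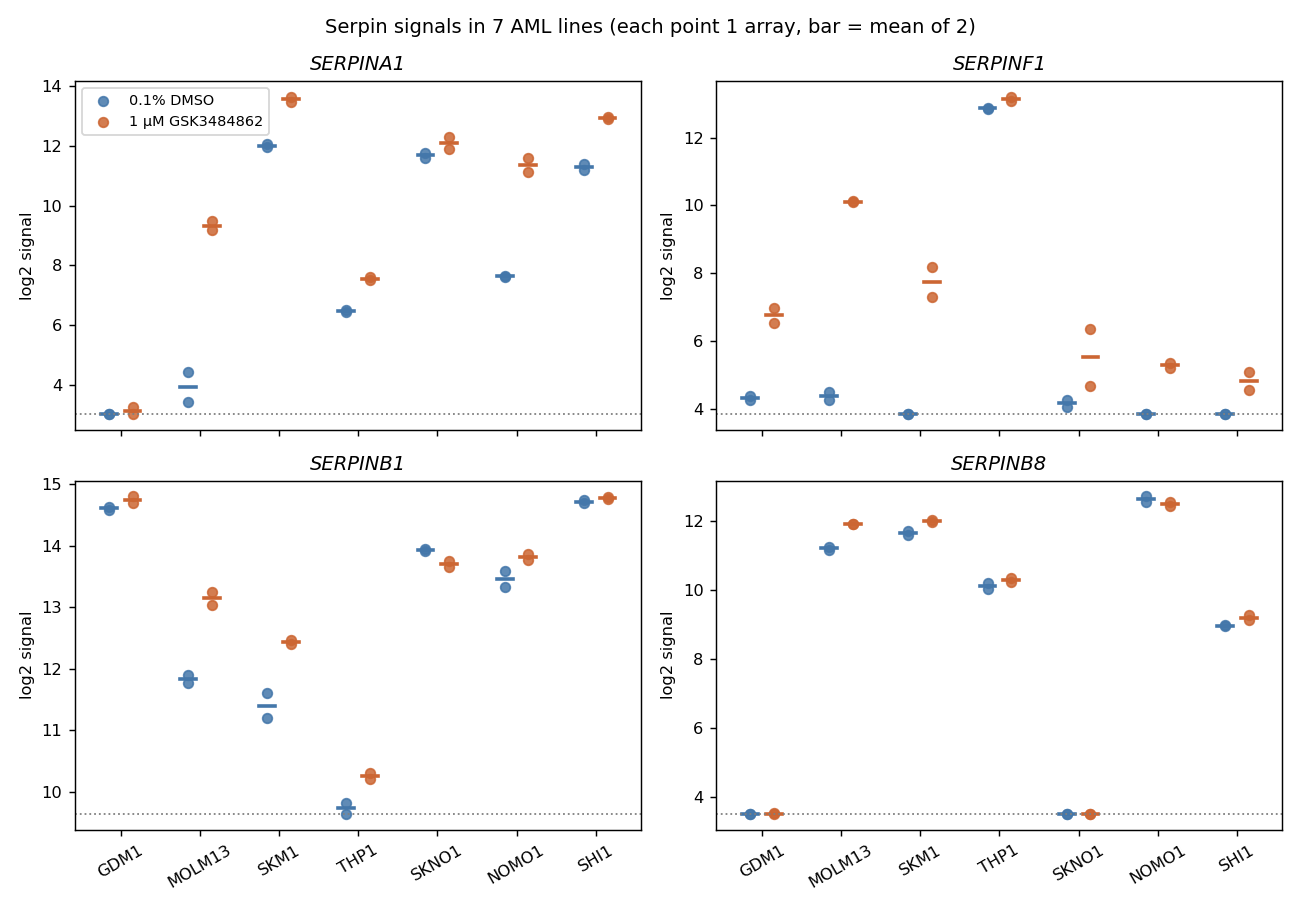
Log2 signal (vertical axis) of the 4 measured serpin genes in the 7 AML lines (horizontal axis), with 0.1% DMSO in blue and 1 µM GSK3484862 in orange; each point is 1 array, the bar is the mean of 2 and the dotted line is the lowest value of that probe set. SERPINF1 stands at 12.9 in THP1 with DMSO and at 3.83 to 4.50 in the other lines, and all its treated arrays lie above the DMSO arrays of the same line.

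Antitrypsin transcript differed widely between untreated lines. With DMSO, SERPINA1 read 11.96 and 12.07 in SKM1, 11.78 and 11.59 in SKNO1, and 11.39 and 11.20 in SHI1. These were the 3 high lines, and neighbours in that order did not differ beyond their spread (limma adjusted p of 0.213 and 0.143). NOMO1 followed at 7.65 and 7.62 and THP1 at 6.49 and 6.44. MOLM13 read 4.42 and 3.43, and GDM1, at 3.00 and 3.00, lay at the lowest value of the probe set (3.00). Each of these steps down passed the test. Over the neighbouring pairs compared here and for the other members, 66.4% of all genes passed the same test (from 62.2% to 71.5% by pair), and 97% of all genes differed between lines in an F-test of the DMSO levels.

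The largest rises of SERPINA1 came in MOLM13 and NOMO1, low and intermediate with DMSO. MOLM13 went to 9.17 and 9.49, a change of 5.41 ± 0.227 (adjusted p = 3.08e-11). NOMO1 reached 11.14 and 11.59, a change of 3.72 ± 0.227 or 13.2-fold (adjusted p = 1.69e-08). Treated MOLM13 thus stayed below the DMSO level of the 3 high lines, while treated NOMO1 came up to the lower edge of their range. SHI1 rose to 12.98 and 12.92 (1.65 ± 0.227, adjusted p = 0.000332), and SKM1 to 13.65 and 13.48 (1.55 ± 0.227, adjusted p = 9e-05). THP1 rose to 7.51 and 7.60 (1.09 ± 0.227, adjusted p = 0.00453). In these 5 lines both treated arrays lay above both DMSO arrays, as did those of 30% of all genes in MOLM13, 21.1% in NOMO1, 29.1% in SHI1, 25.5% in SKM1 and 26.2% in THP1. SKNO1 read 12.30 and 11.92 with the inhibitor, above its DMSO arrays, as did 19.3% of all genes there. Its change of 0.42 ± 0.227 did not pass (adjusted p = 0.344). GDM1 remained at 3.00 and 3.25, overlapping its DMSO arrays (0.13 ± 0.227, adjusted p = 0.769), so SERPINA1 was near its lowest value there under both conditions.

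The second SERPINA1 probe set (202833_s_at) also moved most in MOLM13 and NOMO1, with other sizes. In the fit over all 27306 probe sets its average change was 2.50 ± 0.114, and it was called up in the same 5 lines as the first (211429_s_at). In this fit 18.4% of all probe sets were called up on average, and by line 9.65% in MOLM13, 9.69% in SKM1, 3.6% in THP1, 2.43% in NOMO1 and 1.53% in SHI1. Its change in NOMO1 was 5.43, from 5.59 and 4.99 to 10.49 and 10.95, and in THP1 2.37, from 3.40 and 3.71 to 6.49 and 5.36. Both exceeded those of the first probe set by over 1. In GDM1 all 4 of its arrays read 2.40, its lowest value. Both probe sets carry the suffix of sets that can match more than 1 transcript, so leaving out such sets left SERPINA1 with no value.

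PEDF transcript showed 1 high line and 6 low ones. SERPINF1 read 12.88 and 12.85 in THP1 with DMSO. The next line, MOLM13, read 4.26 and 4.50, lower by 8.48 ± 0.361 (adjusted p = 1.89e-12). GDM1 read 4.27 and 4.37. SKNO1 (4.04 and 4.27), SKM1 (3.83 and 3.84), SHI1 (3.84 and 3.83) and NOMO1 (3.83 and 3.83) lay within 0.5 of the lowest value, 3.83. No neighbouring pair among these 6 lines differed beyond its spread (adjusted p from 0.453 to 1).

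In the low lines SERPINF1 came up with the inhibitor to different heights. MOLM13 reached 10.09 and 10.12 (5.72 ± 0.361, adjusted p = 4.9e-09), SKM1 8.17 and 7.31 (3.90 ± 0.361, adjusted p = 7.78e-07) and GDM1 6.53 and 6.99 (2.44 ± 0.361, adjusted p = 6e-05). None of these came to the level of untreated THP1. NOMO1 read 5.37 and 5.20 (1.45 ± 0.361, adjusted p = 0.0155). SKNO1 read 4.69 and 6.36 (1.37 ± 0.361, adjusted p = 0.0333). SHI1 read 4.57 and 5.09, above its DMSO arrays, and the change of 0.99 ± 0.361 did not pass (adjusted p = 0.185). THP1, already high, read 13.09 and 13.20 (0.28 ± 0.361, adjusted p = 0.699). All treated arrays lay above the DMSO arrays of their line in 7 of 7 lines. In single lines from 19.3% (SKNO1) to 30% (MOLM13) of all genes did so, with 28.2% in GDM1. The share of all genes that did so in all 7 lines was not computed. The calls in NOMO1 and SKNO1 depended on single arrays. In SKNO1 the change was 0.53 (adjusted p = 0.4) without treated replicate 2, 1.25 (0.194) without DMSO replicate 1, 1.48 (0.0895) without DMSO replicate 2, and 2.21 (8.24e-05) without treated replicate 1. In NOMO1 it was 1.36 (0.108) without treated replicate 1, 1.53 (0.0556) without treated replicate 2, and 1.45 (0.0889) without DMSO replicate 2. The change in SHI1 was called, at 0.99 (0.0177), when either treated SKNO1 array was left out, since the spread between those 2 arrays enters the error of every line.

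**Figure D2:**
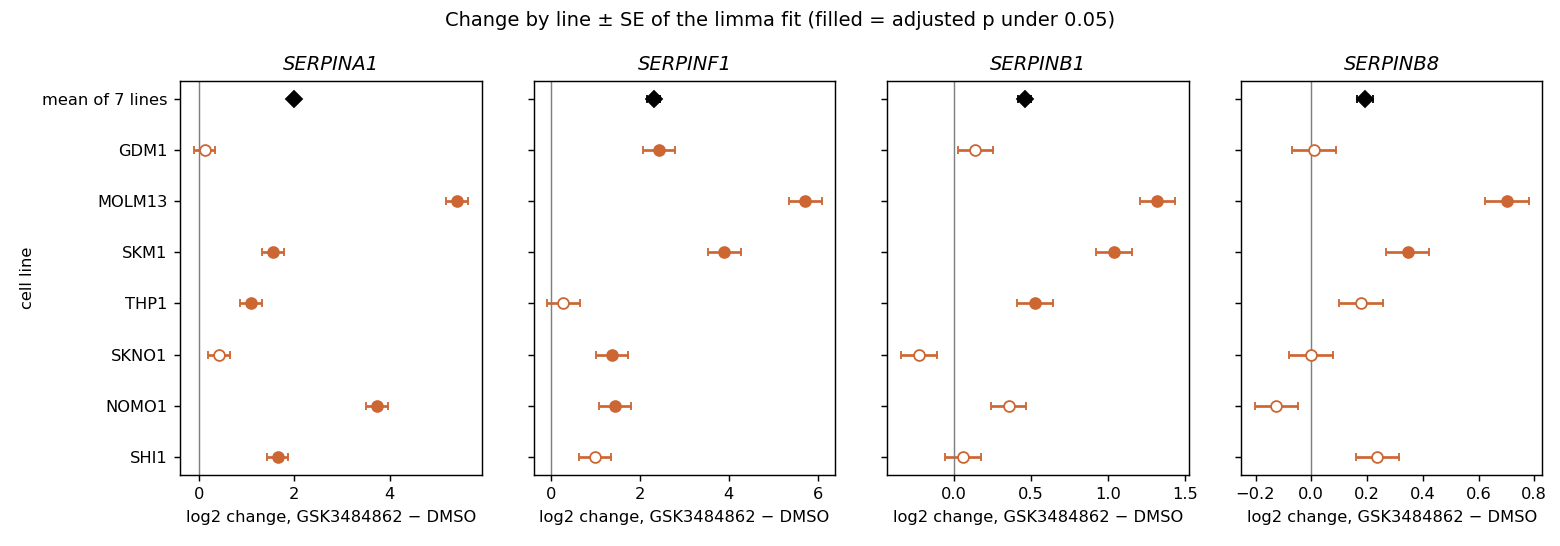
Log2 change, GSK3484862 minus DMSO (horizontal axis, with its own scale for each gene), in each line (vertical axis) and as the mean of 7 lines (black diamond); bars are the SE of the limma fit and filled points had an adjusted p under 0.05. MOLM13 has the largest change for all 4 genes, from 5.72 for SERPINF1 to 0.70 for SERPINB8.

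SERPINB1, the inhibitor of the granule proteases, read at least 9.64 on every array. With DMSO it read 14.69 and 14.73 in SHI1 and 14.58 and 14.63 in GDM1, the highest pair, which did not differ beyond its spread (adjusted p = 0.447). SKNO1 (13.94 and 13.91), NOMO1 (13.33 and 13.59), MOLM13 (11.76 and 11.89), SKM1 (11.19 and 11.60) and THP1 (9.64 and 9.82) followed, and each step passed the test.

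Of the 7 lines, the 3 with the lowest DMSO level had a called rise in SERPINB1. MOLM13 rose to 13.04 and 13.25 (1.32 ± 0.115, adjusted p = 2.96e-07), SKM1 to 12.40 and 12.46 (1.04 ± 0.115, adjusted p = 5.98e-06) and THP1 to 10.30 and 10.21 (0.53 ± 0.115, adjusted p = 0.00621). The order of these 3 lines was kept. NOMO1 read 13.77 and 13.86 (0.36 ± 0.115, adjusted p = 0.0555). GDM1 read 14.69 and 14.80 (0.14 ± 0.115) and SHI1 14.78 and 14.76 (0.06 ± 0.115), neither called. SKNO1 read 13.74 and 13.66, below both its DMSO arrays, with a change of -0.22 ± 0.115 (adjusted p = 0.315). The share of all genes that lay below in this way was not computed. In the other 6 lines both treated arrays of SERPINB1 lay above both DMSO arrays. From 21.1% (NOMO1) to 30% (MOLM13) of all genes did so in those lines. The THP1 change was 0.44 (adjusted p = 0.0798) without its DMSO replicate 1 and 0.48 (0.0556) without its treated replicate 1. The NOMO1 change was called, at 0.48 (0.0475), without its DMSO replicate 2, and at 0.36 (0.0185) without either DMSO array of SKM1. It was also called after quantile normalization (0.38, 0.0303) or centring of the arrays (0.39, 0.0413), with the mean of all probe sets (0.53, 0.00118), without dim genes (0.36, 0.0455), with an eBayes trend (0.36, 0.0319), with array weights (0.36, 0.0472) and with the replicate block (0.36, 0.0316). The count of 3 called lines thus depended on the processing.

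SERPINB1 had 4 probe sets. Beside 212268_at, used above, 213572_s_at and 228726_at gave average changes of 0.47 ± 0.0317 and 0.53 ± 0.0337, and both were called up in MOLM13, SKM1, THP1 and also NOMO1 (0.60 and 0.73). In SHI1 the change was 0.06 in 212268_at and -0.08, -0.12 and -0.25 in the others, with no call. The probe set 239213_at gave an average of 0.16 ± 0.0903 (adjusted p = 0.168) and no called line, where 10.4% of all probe sets were called up in GDM1 and 1.77% in SKNO1. Its SE was the largest of the 4.

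**Figure D3:**
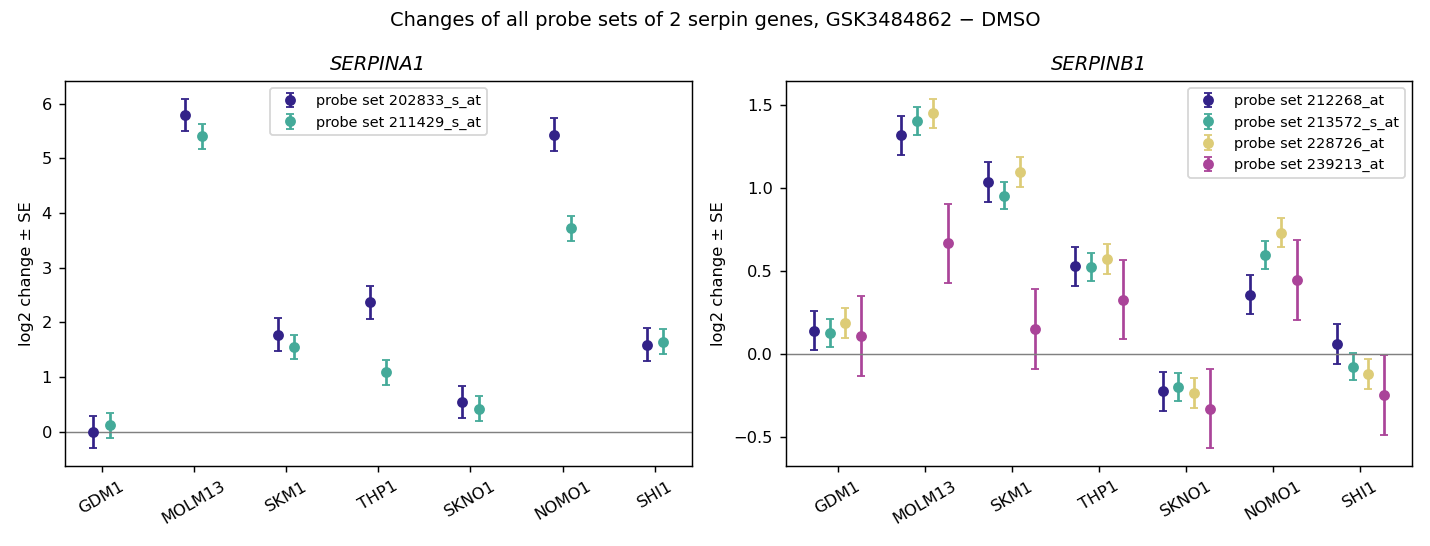
Log2 change ± SE, GSK3484862 minus DMSO (vertical axis), of every probe set of SERPINA1 (left, 2 probe sets) and SERPINB1 (right, 4) in the 7 lines (horizontal axis), from the fit over all probe sets. The SERPINA1 sets lie apart in NOMO1 (3.72 and 5.43) and THP1 (1.09 and 2.37), and SERPINB1 lies below 0 in SKNO1 with all 4 sets.

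SERPINB8, the furin inhibitor, was measured by 1 probe set. With DMSO it read 12.55 and 12.72 in NOMO1, 11.61 and 11.72 in SKM1, 11.17 and 11.26 in MOLM13, 10.03 and 10.22 in THP1, and 8.94 and 8.98 in SHI1, each step passing the test. GDM1 and SKNO1 read 3.50 on all 4 of their DMSO arrays, the lowest value. The inhibitor did not lift it from there: GDM1 read 3.50 and 3.52 and SKNO1 3.50 and 3.50 after treatment.

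The called rises in SERPINB8 were in MOLM13, to 11.91 and 11.92 (0.70 ± 0.0783, adjusted p = 4.85e-06), and in SKM1, to 11.96 and 12.05 (0.35 ± 0.0783, adjusted p = 0.00333). SHI1 read 9.13 and 9.28 (0.24 ± 0.0783, adjusted p = 0.128), THP1 10.36 and 10.24 (0.18 ± 0.0783, adjusted p = 0.151) and NOMO1 12.45 and 12.57 (-0.12 ± 0.0783, adjusted p = 0.348). Both treated arrays lay above both DMSO arrays in 4 lines, counting THP1 and SHI1. So did those of 30% of all genes in MOLM13, 25.5% in SKM1, 26.2% in THP1 and 29.1% in SHI1. The 8 arrays at the lowest value have almost no spread and enter the pooled SE. Duplicates in the other lines were also close, with standard deviations from 0.00866 to 0.131. How far the arrays at the lowest value make the SE small was not tested. From the 4 SKM1 arrays alone the change had an adjusted p of 0.171. Without MOLM13 the average fell to 0.11 (adjusted p = 0.0177).

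By line, MOLM13 and SKM1 had all 4 members called up, against 13.7% and 14.1% of all genes. THP1 had 2 (SERPINA1 and SERPINB1; 5.4% of all genes), NOMO1 2 (SERPINA1 and SERPINF1; 4.21%), GDM1 1 (SERPINF1; 13.3%), SKNO1 1 (SERPINF1; 2.96%) and SHI1 1 (SERPINA1; 2.52%). With each line fitted on its own 4 arrays, MOLM13 and GDM1 kept these calls and the other lines lost them. In SKM1 the limma adjusted p then ran from 0.0697 to 0.171. No member was called down in any line, while 20.5% of all genes were in GDM1, 15.4% in MOLM13, 14% in SKM1, 8.3% in THP1, 3.12% in SKNO1, 7.55% in NOMO1 and 0.899% in SHI1. SERPINA1 and SERPINF1 were called up in 5 lines each, which 0.891% of all genes reached, and SERPINB1 in 3, which 6.06% reached. The choice of members with earlier results known favours such a contrast, so it is no test. The secreted pair had different sets of 5 lines, sharing MOLM13, SKM1 and NOMO1.

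The change itself was tested for a difference between lines with a moderated F-test, which 37.5% of all genes passed, and all 4 members passed it (adjusted p of 2.04e-08 for SERPINA1, 5.98e-06 for SERPINF1, 1.67e-05 for SERPINB1 and 0.000376 for SERPINB8). Against the mean of the other 6 lines, the change in MOLM13 was larger for all 4 members, by 3.98 ± 0.245 for SERPINA1, 3.99 ± 0.39 for SERPINF1, 1.00 ± 0.124 for SERPINB1 and 0.59 ± 0.0845 for SERPINB8 (11.3% of all genes differed there in either direction). MOLM13 was thus the line with the largest rise of each. In NOMO1 the change was larger for SERPINA1 (2.02 ± 0.245) and smaller for SERPINB8 (-0.37 ± 0.0845; 5.86% of all genes differed), and in SKM1 larger for SERPINF1 (1.86 ± 0.39) and SERPINB1 (0.67 ± 0.124; 12.1%). In THP1 it was smaller for SERPINF1 (-2.36 ± 0.39) and SERPINA1 (-1.05 ± 0.245), where 3.73% of all genes differed. In GDM1 and SKNO1 it was smaller for SERPINA1 (-2.18 and -1.84 ± 0.245) and SERPINB1 (-0.37 and -0.80 ± 0.124), with 23.1% and 7.49% of all genes different. In SHI1 it was smaller for SERPINF1 (-1.54 ± 0.39) and SERPINB1 (-0.47 ± 0.124; 4.33%). A gene that starts at its lowest value and one that starts high do not have the same room to rise, and how far this sets the differences was not tested.

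Over the 14 group means the members did not follow each other: Pearson's r ran from -0.672 (SERPINF1 with SERPINB1) to 0.246 (SERPINA1 with SERPINB8). Among 5708 genes whose group means spanned at least 2, the most like SERPINA1 were MSRB3 (r = 0.934), ENTPD7 (0.91) and PCGF5 (0.899), and the most like SERPINF1 were CHKB (0.942), SCAMP5 (0.941) and PIPOX (0.935). Those most like SERPINB1 were MINPP1 (0.944), STK38L (0.943) and IL27RA (0.935), and those most like SERPINB8 were SBF2-AS1 (0.984), RTL8A (0.981) and ATXN1 (0.976). These values describe profiles over 7 lines with 2 groups each and carry no p-value, and differences between lines weigh more in them than treatment.

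Of 30 other serpin genes listed, 7 were measured, and on average 3 (42.9%) were called up and 2 (28.6%) down, against 23.2% and 28.6% of all genes. SERPINI1, which encodes the brain serpin neuroserpin, rose by 0.91 ± 0.0979 and was called up in GDM1 (2.63), MOLM13 (1.21), SKM1 (1.07), THP1 (0.93) and SKNO1 (0.91). The SKNO1 arrays went from 4.24 and 3.22, the lowest value, to 4.27 and 5.00 (limma adjusted p = 0.0482). In the fit over all probe sets that change was not called (0.0679). In NOMO1 SERPINI1 was at -0.42, not called, with both treated arrays below both DMSO arrays. The share of all genes that lay below there was not computed. AGT, the angiotensin precursor, rose by 3.91 in MOLM13, from 6.05 and 6.43 to 10.16 and 10.13. Without MOLM13 its average went from 0.77 to 0.25 (adjusted p = 0.022). SERPINB9, the granzyme B inhibitor, rose on average by 1.38 ± 0.315. In GDM1 it went from 2.13 on both DMSO arrays, the lowest value of the table, to 6.61 and 6.38, and in NOMO1 from 7.25 and 5.38 to 9.21 and 9.41. The SKM1 duplicates disagreed, at 6.56 and 2.39 after treatment against 2.13 and 2.13, and without GDM1 the average was 0.88 and not called (adjusted p = 0.0615). SERPINE2, protease nexin 1, had an average of -0.28 and SERPINH1, the collagen chaperone HSP47, of -0.20, and both calls were lost without NOMO1 (-0.13, adjusted p = 0.114, and -0.13, 0.0616). SERPINB10 was called up in MOLM13 (2.01) and down in SHI1 (-0.92). With lines as the units, 0 of these 7 were called in either direction.

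**Figure D4:**
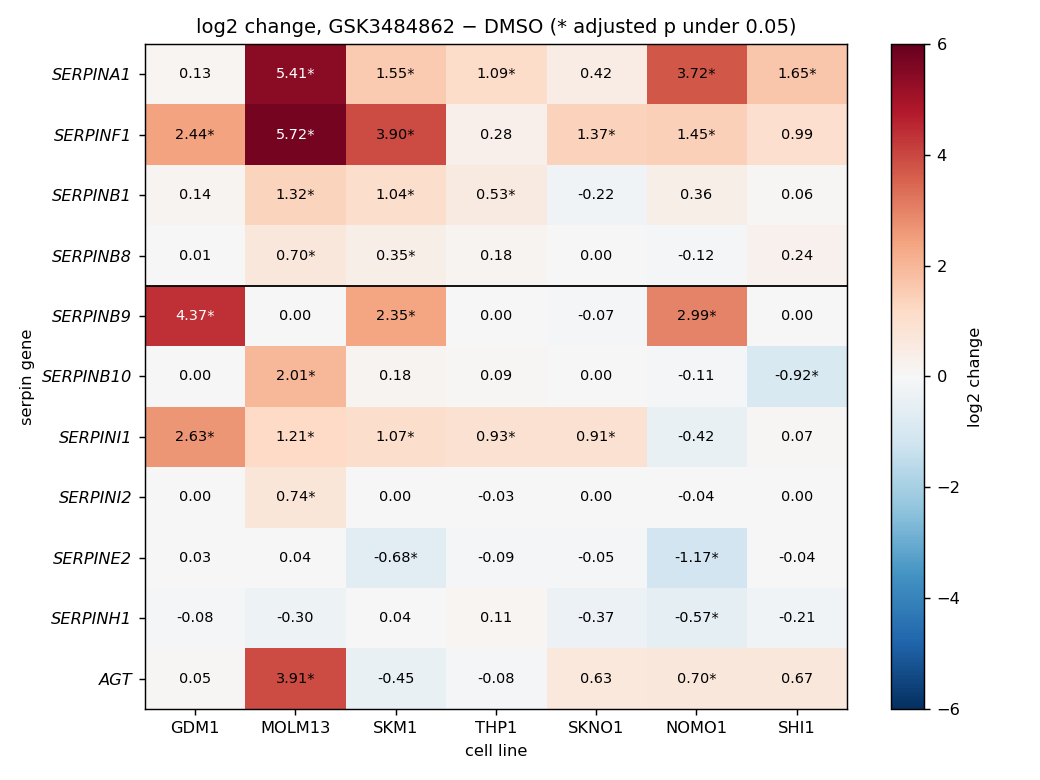
Log2 change, GSK3484862 minus DMSO, of the 4 members (above the line) and the 7 other measured serpin genes (below) in each line; colour and number give the change and an asterisk marks an adjusted p under 0.05. The lines that respond differ from gene to gene: MOLM13 leads for SERPINA1, SERPINF1 and AGT, and GDM1 for SERPINB9 and SERPINI1.

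The nearest measured genes beside the members were set against them. SERPINB9, the nearest measured gene on 1 side of SERPINB1 on chromosome 6, was called up in GDM1, SKM1 and NOMO1, of which SERPINB1 was called up in SKM1, and stayed at 2.13 on all MOLM13 arrays. The SKM1 rise of SERPINB9, where the treated duplicates disagreed, was not called in the fit over all probe sets (limma adjusted p = 0.0574). WRNIP1, on the other side, had an average of -0.09 ± 0.0305 (adjusted p = 0.0155), not called without MOLM13 (-0.08, 0.0594). SERPINB10 is the nearest on 1 side of SERPINB8 on chromosome 18, and both were called up in MOLM13. In SHI1 SERPINB10 was called down (-0.92) where SERPINB8 was at 0.24 with no call, and TMX3, on the other side, averaged 0.04 ± 0.0377 (adjusted p = 0.456). DICER1 and IFI27L2, the nearest measured genes on the 2 sides of SERPINA1, had average changes of -0.05 ± 0.0509 (adjusted p = 0.453) and 0.36 ± 0.0801 (0.00129). WDR81 and SMYD4 beside SERPINF1 had 0.26 ± 0.0527 and -0.31 ± 0.0827, both called, and WDR81 was at 0.15 (adjusted p = 0.0519) without GDM1.

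Genes of proteases were listed too, some of them targets of serpins and some not. Of 5 measured granule serine protease genes of 6 listed, 2 (40%, against 23.2% of all genes) were called up on average, PRTN3 (proteinase 3; 0.15 ± 0.0558) and AZU1 (azurocidin; 0.13 ± 0.0359), and ELANE, neutrophil elastase, was at 0.06 ± 0.0429 (adjusted p = 0.276). PRTN3 was not called without NOMO1 (0.07, adjusted p = 0.344) or SKNO1 (0.09, 0.19) and was at 0.25 without SKM1, and AZU1 was not called without GDM1 (0.09, 0.0788) or MOLM13 (0.07, 0.124). These averages were small beside that of SERPINA1, but single lines moved both ways. In MOLM13 3 (60%) and in GDM1 2 (40%) were called up, against 13.7% and 13.3% of all genes. SKM1, SKNO1 and NOMO1 had 1 (20%) each, against 14.1%, 2.96% and 4.21%, and THP1 and SHI1 0. GDM1 and SKM1 also had 1 (20%) each called down, against 20.5% and 14% of all genes. CTSG, the cathepsin G gene, averaged 0.18 ± 0.111 (adjusted p = 0.186). Its lowest group mean was 8.24 with DMSO and 6.83 over all groups. A wider protease list was not limited to targets of serpins. Of its 33 genes 19 were measured, and 10 (52.6%) were called up and 0 down by limma, with a median of 0.31. FURIN, the target of SERPINB8, rose by 0.28 ± 0.0724, MMP9 by 1.18 ± 0.0857 (called in 7 of 7 lines) and the lysosomal protease gene CTSD by 0.68 ± 0.0572.

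Of 19 measured protease inhibitors of other families of 32 listed, 11 (57.9%, against 23.2% of all genes) were called up and 1 down. Their median was 0.29. The cystatin F gene CST7 rose by 0.92 ± 0.138 and SPINT1, a Kunitz inhibitor of cell-surface proteases, by 0.79 ± 0.0676. SLPI, which blocks neutrophil elastase as antitrypsin does, changed by 5.39 in MOLM13, and its average of 0.94 went to 0.20 (adjusted p = 0.359) without that line. SPINT2 changed by 3.09 in SHI1, and its average of 0.84 went to 0.46 without it.

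The C1 inhibitor acts in the complement and contact systems, of whose 42 listed genes 18 were measured. On average 16 (88.9%) were called up and 0 down by limma, against 23.2% and 28.6% of all genes. Their median was 0.53. The complement component gene C3 changed by 6.61 in MOLM13, and its average of 1.50 was 0.65 without that line. CD93, a receptor of myeloid cells, changed by 7.56 in SKM1, and its average of 1.75 was 0.78 without it. F12, the contact factor that C1 inhibitor blocks, rose by 0.42 ± 0.0732. With lines as the units, 1 of the 18 was called up.

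For the receptors and clearance proteins of serpins, 3 of 8 measured (12 listed; 37.5%, against 23.2% of all genes) were called up and 0 down, with a median of 0.11. PLXDC2, a PEDF receptor, changed by 5.14 in MOLM13, where SERPINF1 also rose most, and its average of 0.95 went to 0.25 (adjusted p = 0.115) without that line. PLXDC2 was at 1.79 in GDM1, 0.81 in THP1 and 0.65 in SKM1. It was at -0.07 in SKNO1, -0.61 in NOMO1 and -1.08 in SHI1, not called down, where SERPINF1 was at 1.37, 1.45 and 0.99. PNPLA2, another PEDF-binding protein, was at 0.16 ± 0.0671 (adjusted p = 0.0625). Of 15 genes for folding and export of antitrypsin from the endoplasmic reticulum, 4 were called up and 1 down, with a median of 0.03. That share, 26.7%, is near the 23.2% of all genes called up, and with lines as the units 2 were called up and 0 down by limma. The degradation lectin genes EDEM1 and EDEM2 rose by 0.32 ± 0.0311 and 0.36 ± 0.0521, and LMAN1, the cargo receptor of antitrypsin, fell by 0.19 ± 0.0279.

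Markers of myeloid maturation and of other cell types moved beside the serpins. Of 20 measured monocyte and granulocyte maturation genes of 24 listed, 17 (85%) were called up on average and 0 down by limma (median 0.91). Over all genes these shares were 23.2% and 28.6%. Called up were 13 (65%) in MOLM13, 10 (50%) in SKM1 and 6 (30%) in GDM1, against 13.7%, 14.1% and 13.3% of all genes. THP1 and NOMO1 had 4 (20%) each, against 5.4% and 4.21%, and SKNO1 and SHI1 2 (10%) each, against 2.96% and 2.52%. MOLM13 and SKM1, the lines with all 4 serpins called, thus had the most maturation genes called. Both also had the largest shares of all genes called up. Of 35 measured interferon response genes of 40 listed, 27 (77.1%) were called up and 1 (2.86%) down on average (median 0.60). GDM1 had 30 (85.7%) called up, THP1 24 (68.6%), SKM1 15 (42.9%) and SKNO1 4 (11.4%), beside the shares of all genes just given. In MOLM13 6 (17.1%) and in SHI1 1 (2.86%) were called up, near the shares of all genes there, and in NOMO1 0. Called down were 2 each in MOLM13, NOMO1 and SHI1 and 1 in SKNO1. With lines as the units, 5 maturation genes and 1 interferon gene were called up, and the calls of HP, T and NK cell and B cell genes given next were lost. Of 12 hepatocyte genes 1, HP, was measured, a gene that myelocytes also use. HP was called up in MOLM13 (3.32), THP1 (1.63), NOMO1 (1.34) and SKM1 (1.04), 4 of the 5 lines with a called rise in SERPINA1, and its group means ran from 2.82 to 12.1. In SHI1, the other of these 5 lines, HP was at -0.46 with no call. T and NK cell, B cell, fibroblast and retinal pigment epithelium lists had 2, 3, 1 and 1 measured genes, with 1, 1, 0 and 0 called up and none down, and no erythroid gene was measured. The T cell gene CD3D spanned group means from 3.78 to 14.6, COL1A1 of fibroblasts from 8.81 to 9.70 and MITF of pigment cells from 3.17 to 7.85. In cultured lines a change in the share of maturing cells and a change in RNA per cell cannot be told apart, and the part of maturation or interferon genes in the serpin changes was not tested.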

How the data were processed

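RNA of 28 samples was read on 1 array each. The authors deposited 1 table of log2 signals for 27306 probe sets, with background correction, summarisation and normalization not given in the sources used here (limma is listed in the submitters' processing notes, with no version or role). Groups came from the labels. Gene symbols came from the platform annotation, which can be old: 22580 probe sets had 1 symbol, 1098 several and 3628 none, and those with 1 symbol were tested, the brightest probe set per gene (11676 genes). A fit over all probe sets gave the other sets. With R 4.3.3, limma 3.58.1 fitted 14 groups (functions lmFit and eBayes, constant prior; 14 residual and 2.28 prior degrees of freedom), with two-sided p adjusted by Benjamini-Hochberg over all genes. Per the series design the duplicates are biological. The code was tested on simulated data.

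The members and gene lists were chosen with earlier results of these data known. The naming rule took all members, up to 6 called other serpins, up to 4 called genes per list by average change, and the 3 genes most like each member over group means. Genomic neighbours, by RefSeq gene order without coordinates, and ELANE, CTSG, FURIN, F12 and PNPLA2, as targets or receptors, were named beside that rule after their values were known. Windows before start sites came from RefSeq. The alternatives were another normalization or centring, a filter on dim genes, the mean of a gene's probe sets, eBayes options, array weights, a replicate block, and leaving out arrays, replicates or lines.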

Additional observations from a re-analysis of the deposited data

Results flagged for a closer look

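The size of the response to GSK3484862 differed between the 7 lines for each measured serpin, by a moderated F-test across the lines. The limma adjusted p was 2.04e-08 for SERPINA1, 5.98e-06 for SERPINF1, 1.67e-05 for SERPINB1 and 0.000376 for SERPINB8, and 37.5% of all genes passed the same test. SERPINA1 ranged from 0.13 in GDM1 to 5.41 in MOLM13, SERPINF1 from 0.28 in THP1 to 5.72 in MOLM13, SERPINB1 from -0.22 in SKNO1 to 1.32 in MOLM13 and SERPINB8 from -0.12 in NOMO1 to 0.70 in MOLM13. Groups of 2 arrays are too small for a check of single outlying arrays.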

How the results depend on the processing

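For the averages of the 4 members and their differences between lines (12 results), 334 of 346 alternative values kept the direction and the side of the threshold. The other 12 were the averages with lines as the units, at 2.00 for SERPINA1, 2.31 for SERPINF1, 0.46 for SERPINB1 and 0.19 for SERPINB8, and those with all replicates of 1 number left out, where the fit had terms for line and treatment, its error was the spread of the change between lines, and none of the 4 was called. Over all fits without an array or a replicate number, SERPINA1 ran from 1.87 to 2.13, SERPINF1 from 2.19 to 2.43, SERPINB1 from 0.40 to 0.51 and SERPINB8 from 0.17 to 0.22. Fits without a line are not in these ranges. MOLM13 had the largest change of each member, so each average is lower without that line. Of the 346 alternative values, 112 averages and 112 differences between lines left out only 1 of the 28 arrays. With the replicate number as a block, the averages were called as before and the change of SERPINB1 in NOMO1 became called (0.36, adjusted p = 0.0316), the only call of a member that the block changed. Same-numbered arrays of a line deviated together with correlations from -0.0974 to 0.391, so the numbers were not taken to pair samples. Of 1057 alternative values for the 28 changes in single lines, 1024 kept their side, 19 lost a call, 14 gained one and 0 reversed. Most of these left out 1 array of another line, which cannot move the change itself and acts only through the error and the adjustment. The 1024 kept and 0 reversed are thus largely set by this choice of alternatives. With each line fitted on its own 4 arrays, 10 calls were lost. These were all the calls of members in SKM1, THP1, SKNO1, NOMO1 and SHI1. The calls in MOLM13 and that of SERPINF1 in GDM1 were kept. With array weights SERPINB8 lost its call in SKM1 (adjusted p = 0.0799). Of the other gene lists with lines as the units, 3 genes of the wider protease list, 1 other inhibitor, 1 receptor gene and 0 granule proteases were called up. After centring of the arrays 1 granule protease was called up. The cause of these shifts was not tested.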
